A study of Homo sapiens with 36 samples.

Results

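The enzymes that convert farnesyl diphosphate, by way of squalene and lanosterol, into cholesterol were followed in HepG2 cells, a line derived from a human liver tumour that makes and secretes lipoproteins. They were chosen by name, as the rows of the deposited count table for FDFT1, SQLE, LSS, CYP51A1, MSMO1, NSDHL, HSD17B7, SC5D and DHCR7, which gave 9 of 18932 genes. The cells were incubated in medium without serum for 6 h or 24 h. They received docosahexaenoic acid bound to albumin (DHA), propionate (PRO), protocatechuic acid (PCA), DHA + PRO or DHA + PCA, each at a single dose. Control cells (Ctrl) received matching amounts of albumin, ethanol and DMSO. Each of the 12 groups had 3 libraries of messenger RNA, 36 in all. The study states 3 independent cultures and pooled the replicate wells of each. The serum-free medium was common to all groups, and HepG2 is a single tumour line, so the values describe that line alone.

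In the cell, FDFT1 joins a pair of farnesyl diphosphate molecules into squalene, SQLE adds an oxygen to it, and LSS folds the product into lanosterol, the first sterol. CYP51A1, MSMO1, NSDHL and HSD17B7 then remove methyl groups from lanosterol, SC5D places a double bond in the ring, and DHCR7 removes a double bond to give cholesterol. Transcription of these genes is driven by the SREBP factors, which the SCAP protein carries out of the endoplasmic reticulum when membrane sterol is low, and the liver is a main site of the pathway.

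The promoter sequences of the enzymes are shown as a description, and whether they bear on the changes was not tested. RefSeq promoters, taken as the 250 bases before an annotated start site, were used for LSS, CYP51A1, MSMO1, NSDHL, HSD17B7, SC5D and DHCR7. SC5D and DHCR7 had 2 start sites each. FDFT1 and SQLE were left out of the promoter search, so its counts say nothing of these 2 enzymes. Each promoter was placed on GRCh37 by an exact match at a single position. The parts of 4 of them that lay outside the counted gene are printed on the strand of the gene, with the NF-Y box CCAAT, the Sp1 box GGGCGG and their reverse complements in capitals. MSMO1 was shown for its large fall at 6 h, LSS for its large fall at 24 h, NSDHL for the most CCAAT boxes in the 250 bases searched, and HSD17B7 because its RefSeq start site adjoined the start of the counted gene.
MSMO1, chr4:166248571-166248817, plus strand: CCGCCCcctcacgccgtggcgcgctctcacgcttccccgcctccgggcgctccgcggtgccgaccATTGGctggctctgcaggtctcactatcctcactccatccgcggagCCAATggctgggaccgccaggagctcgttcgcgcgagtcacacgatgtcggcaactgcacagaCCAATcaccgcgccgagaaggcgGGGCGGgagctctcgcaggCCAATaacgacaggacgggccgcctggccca
LSS, chr21:47648739-47648938, minus strand: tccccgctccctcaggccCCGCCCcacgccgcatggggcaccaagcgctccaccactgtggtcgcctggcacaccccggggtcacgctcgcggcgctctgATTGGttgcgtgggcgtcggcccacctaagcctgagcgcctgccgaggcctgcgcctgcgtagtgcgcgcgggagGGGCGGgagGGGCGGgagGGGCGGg
NSDHL, chrX:151999357-151999510, plus strand: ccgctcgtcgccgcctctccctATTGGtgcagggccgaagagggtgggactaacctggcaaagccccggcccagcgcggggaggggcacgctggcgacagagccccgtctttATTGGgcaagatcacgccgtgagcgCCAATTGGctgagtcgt
HSD17B7, chr1:162760242-162760491, plus strand: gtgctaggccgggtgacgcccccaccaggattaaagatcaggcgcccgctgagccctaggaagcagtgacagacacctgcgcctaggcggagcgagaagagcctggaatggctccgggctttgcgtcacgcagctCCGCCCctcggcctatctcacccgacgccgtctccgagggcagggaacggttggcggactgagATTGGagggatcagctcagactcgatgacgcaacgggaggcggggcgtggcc

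A search of both strands of the 250 bases found CCAAT, the box bound by NF-Y, in 7 of the 9 promoters and in 6 of the 7 genes, against 32% of all 35116 RefSeq promoters. NSDHL held 5 such boxes, of which a forward and a reverse match overlapped, and MSMO1 held 4. GGGCGG was in 7 of 9 promoters, against 42.6% of all, and LSS alone held 6 copies. Among these 9 promoters the letters CACNCCAC, a core of the sterol regulatory element with any base at N, matched only at the second start site of SC5D, against 4.87% of all promoters. That start site lay 173 bases inside the counted gene and the match 68 bases before it, so the match was within the gene. Among the 7 genes searched, the E-box CACGTG matched in SC5D alone, at both start sites, whose windows overlap, against 6.34% of all promoters. The search took all 250 bases, also those inside the counted gene. Such bases made up the whole CYP51A1 window and held some GGGCGG copies of LSS and a CCAAT box of NSDHL. They also held a GGGCGG copy of DHCR7 and one before the second SC5D start site. The SC5D start sites lay 92 and 173 bases inside the gene, with CCAAT 56 and 137 bases before them. This was the same CCAAT site, within the gene, and the promoter count holds it for both windows. These counts describe letters in a short window and no binding was measured.

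**Figure D1:**
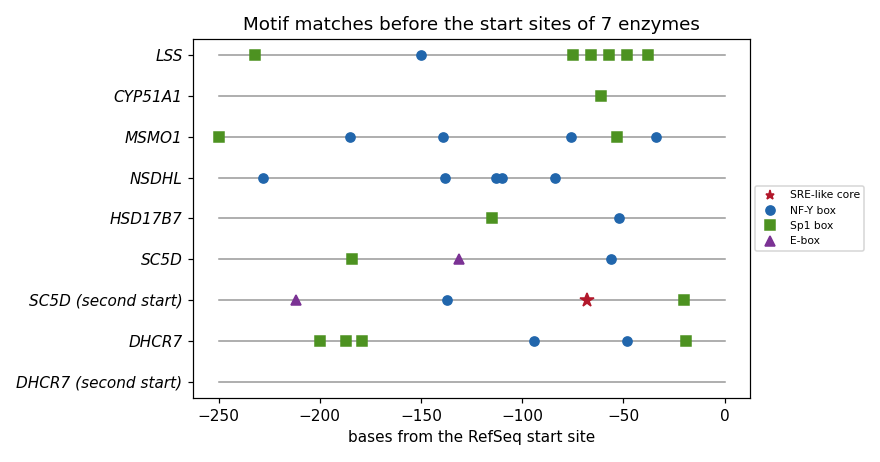
Matches of 4 short letter motifs (colours) in the 250 bases before each RefSeq start site of 7 enzymes, with the x axis in bases from the start site. CCAAT boxes are seen before 7 of 9 start sites, while the second start site of DHCR7 holds no match to any of the motifs.

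The libraries held between 4659744 and 42326734 counts assigned to genes, with a median of 7034006.5. The deepest was replicate 2 of DHA + PRO at 24 h, and the other 24 h libraries held 5617341 to 8657882 counts. No pair of libraries agreed within sampling noise. Transcripts of albumin (ALB, 21700 to 31700 CPM, the count scaled to library size), APOB and AFP were abundant in every library, whereas the leukocyte gene PTPRC was at 0 in 34 libraries and CD3E in 35 of 36. Of the 7 markers of other cell types only ACTA2 reached more than 10 CPM (22.1 to 58.4). The summed level of the 7 markers at 24 h was 45.4 to 65.3 CPM with DHA and 29.4 to 50.6 CPM without, and at 6 h 23.2 to 37.4 and 26 to 35.4 CPM. For ACTA2 the difference with DHA at 24 h was 0.25 ± 0.09 on the log2 scale (adjusted p = 0.302, edgeR), and it was called higher when the replicate number, which marks a culture, was added to the fit as a block (adjusted p = 0.0435). Of 8 hepatocyte markers, 6 had negative log2 differences with DHA at 24 h (median -0.044, from -0.2 to 0.107). TF, which encodes transferrin, was called lower, -0.20 ± 0.05 (adjusted p = 0.0317, edgeR), with 4290 to 4860 CPM with DHA and 4900 to 5860 without. With the block APOB (-0.13, adjusted p = 0.0197) and TTR (-0.20, adjusted p = 0.0136) were called lower too. At 6 h 0 of the 8 were called by edgeR, with or without the block, and 0 had an unadjusted p under 0.05 (median 0.024). The part of all these markers in the results was not tested.

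In GRCh37 (hg19), the build of the deposited table, FDFT1 (NM_001287744) lay at chr8:11653082-11696818 and SQLE (NM_003129) at chr8:126010720-126034525, both on the plus strand. LSS (NM_001001438) was at chr21:47608360-47648738 and CYP51A1 (NM_001146152) at chr7:91741463-91764059, both on the minus strand. MSMO1 (NM_006745) was at chr4:166248818-166264314, NSDHL (NM_015922) at chrX:151999511-152037907 and HSD17B7 (NM_016371) at chr1:162760492-162782608, all on the plus strand. SC5D (NM_006918) was at chr11:121163388-121184119 on the plus strand and DHCR7 (NM_001360) at chr11:71145457-71159477 on the minus strand. The 9 genes thus stood on 7 chromosomes, and none overlapped another gene of the table. The annotation also lists 2 pseudogenes of HSD17B7 and 3 of CYP51A1, so reads of these 2 enzymes may have been shared with near copies.

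Per base of counted transcript, the head of the branch was the most abundant. In Ctrl cells at 24 h, FDFT1 stood at 408 ± 18.3 RPKM (CPM divided by the counted length in kilobases, with SD, n = 3). This was at or above the level of 98.9% of the 11893 genes tested at 24 h, FDFT1 included. It was followed by DHCR7 at 212 ± 25.1, MSMO1 at 183 ± 16.7 and SQLE at 169 ± 3.48 RPKM, each of which overlapped the next in its range over samples. CYP51A1 followed at 86.4 ± 5.86 RPKM, clear of its neighbours on either side. NSDHL (51.1 ± 4.73 RPKM), LSS (41.8 ± 10.4 RPKM) and HSD17B7 (38 ± 2.95 RPKM) overlapped in turn, and SC5D was lowest at 31.5 ± 3.11 RPKM, its highest sample just under the lowest of HSD17B7 (35.1 and 35.3 RPKM).

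After 24 h all 9 enzymes were lower in the cells that received DHA, alone or with PRO or PCA, than in the cells that did not. The average change over the 3 DHA groups against the 3 groups without DHA ran from a fall of 20.7% for SC5D to a fall of 38.4% for LSS, with a median log2 fold change of -0.48. The same median over all 11893 genes tested was 0.007. All 9 were called lower by edgeR's quasi-likelihood test at a Benjamini-Hochberg adjusted p of at most 0.05 over all genes tested, with an average log2 CPM above 0, against 0.942% of all tested genes. This comparison of 9 with 9 libraries is termed the pooled DHA effect. By their replicate numbers, the libraries of each side came from 3 cultures, which this fit did not take into account. In bulk samples such as these, fewer cells with a transcript and less of it per cell cannot be told apart.

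FDFT1, which commits farnesyl diphosphate to sterols, gave the clearest separation. Its CPM at 24 h were 930, 895 and 979 in Ctrl, 857, 838 and 996 in PRO, and 930, 959 and 1010 in PCA. With DHA they were 600, 617 and 647, with DHA + PRO 582, 607 and 677, and with DHA + PCA 606, 617 and 624. Every DHA library thus lay below every library without DHA, and the 3 DHA groups overlapped one another. The pooled DHA effect was -0.59 ± 0.05 on the log2 scale (SE, adjusted p = 3.17e-08 by edgeR), a fall of 33.6%.

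SQLE, a flavoprotein and a control point of the pathway, had 493, 511 and 510 CPM in Ctrl and 405, 414 and 368 CPM with DHA at 24 h. Over the 9 libraries with DHA it ranged from 362 to 436 CPM with a median of 386, and over the 9 without from 473 to 560 with a median of 493. The groups with and without DHA did not overlap, and the fall was the second smallest log2 change among the enzymes, -0.36 ± 0.05 (adjusted p = 7.15e-05, edgeR).

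LSS, the cyclase, fell most but varied most. Its CPM at 24 h were 80.4, 130 and 127 in Ctrl, 62.5, 75.3 and 83.9 with DHA, 51.3, 68.7 and 89 with DHA + PRO, and 61, 75 and 64.9 with DHA + PCA. The low Ctrl library, replicate 1, lay below the highest DHA and DHA + PRO libraries, so these groups overlapped. The pooled effect was -0.70 ± 0.10 (adjusted p = 0.00019, edgeR).

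The enzymes that strip the methyl groups fell by similar amounts. CYP51A1, a cytochrome P450, ranged from 156 to 205 CPM with DHA (median 165) and from 214 to 269 without (median 235), a pooled effect of -0.48 ± 0.06 (adjusted p = 5.64e-06, edgeR). MSMO1, the methylsterol oxidase, ranged from 249 to 353 CPM with DHA (median 276) and from 370 to 444 without (median 384), a pooled effect of -0.48 ± 0.05 (adjusted p = 3.74e-06). Neither gene overlapped between the libraries with and without DHA. NSDHL, the dehydrogenase of the next step, ranged from 56.3 to 73.2 CPM with DHA and from 62.5 to 95.9 without, and HSD17B7, the ketosteroid reductase, from 37.9 to 51.9 and from 51.4 to 63.8 CPM. Both overlapped, HSD17B7 by a single DHA library, and their pooled effects were -0.36 ± 0.07 (adjusted p = 0.00591) and -0.45 ± 0.07 (adjusted p = 0.000154, edgeR).

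SC5D, the desaturase, showed the smallest change. Its CPM at 24 h were 209, 244 and 204 in Ctrl, 185, 189 and 140 with DHA, 155, 173 and 157 with DHA + PRO, and 172, 211 and 146 with DHA + PCA. The libraries with DHA overlapped those without, which spanned 189 to 269 CPM. The pooled effect was -0.34 ± 0.08 (adjusted p = 0.0274, edgeR), and the call was lost without Ctrl replicate 2, DHA replicate 3, PCA replicate 2, DHA + PRO replicate 1 or 3, or DHA + PCA replicate 1 or 3 (adjusted p up to 0.0834). DHCR7, the reductase, had 494, 625 and 579 CPM in Ctrl and 377, 428 and 440 with DHA. It ranged from 366 to 440 CPM over the libraries with DHA and from 403 to 634 without, and only PRO replicate 1 among the latter lay within the DHA range. Its pooled effect was -0.48 ± 0.06 (adjusted p = 5.15e-05, edgeR).

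In 4 of the 9 enzymes, FDFT1, SQLE, CYP51A1 and MSMO1, all 9 libraries with DHA lay below all 9 without at 24 h, a pattern found in 0.286% of all tested genes.

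**Figure D2:**
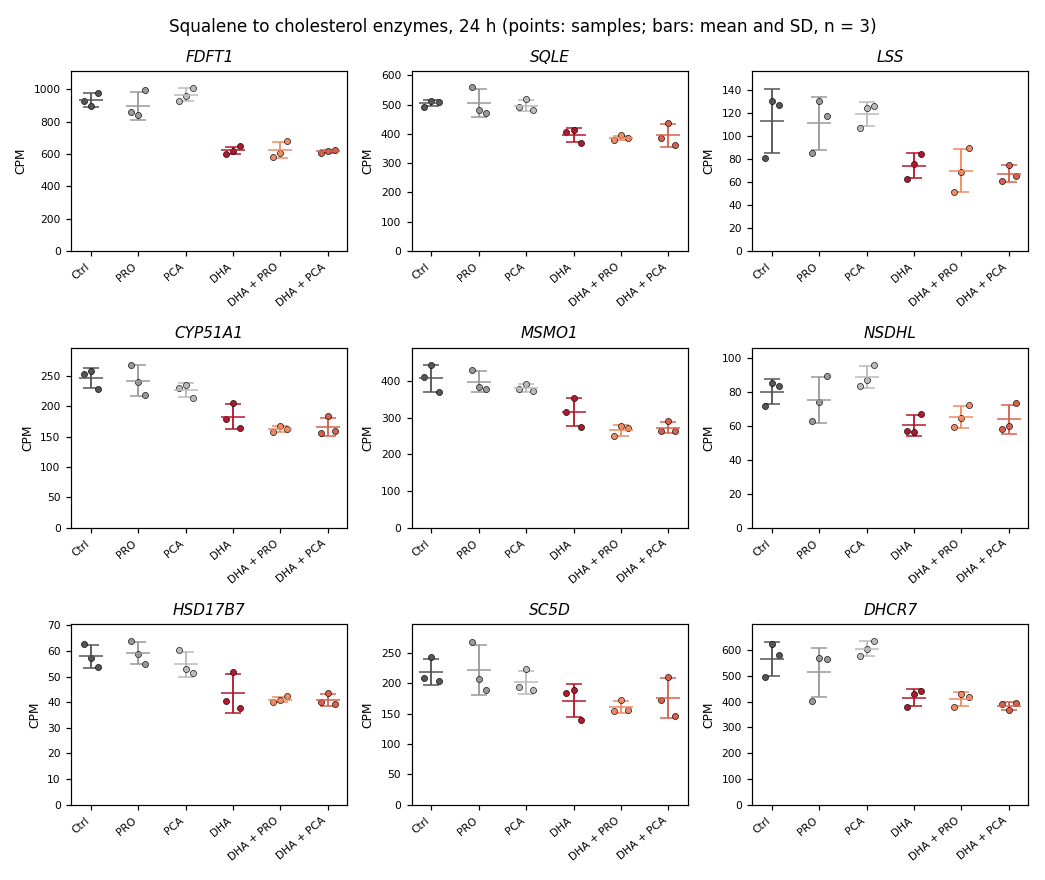
CPM of each enzyme (y axis, from 0) in the 6 groups at 24 h, with points for samples and bars for the mean and SD (n = 3). The 3 DHA groups lie under the 3 groups without DHA in every panel, without overlap for FDFT1, SQLE, CYP51A1 and MSMO1.

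Taken singly, with 3 libraries a group, fewer enzymes passed the test. DHA against Ctrl at 24 h called 1 of 9 enzymes lower, FDFT1 at -0.59 ± 0.08 (adjusted p = 0.000979, edgeR), against 0.168% of all tested genes. The other 8 had log2 fold changes between -0.35 and -0.61, and all 9 had an unadjusted p under 0.05, as had 5.95% of all genes in either direction. Addition of PRO or PCA to DHA gave 4 called enzymes each. For DHA + PRO against Ctrl (0.294% of all genes called lower) these were FDFT1, SQLE, CYP51A1 and MSMO1, with MSMO1 at -0.62 ± 0.09 (adjusted p = 0.000861). For DHA + PCA against Ctrl (0.235%) they were FDFT1, CYP51A1, MSMO1 and DHCR7, with DHCR7 at -0.56 ± 0.11 (adjusted p = 0.0179, edgeR), and the count was 2, FDFT1 and MSMO1, without DHA + PCA replicate 1. The 3 comparisons share the Ctrl libraries.

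The single comparisons at 24 h called more enzymes when the replicate number was kept as a block. DHA against Ctrl then called 7 of 9 lower (0.488% of all tested genes), all but HSD17B7 (adjusted p = 0.0706) and SC5D (adjusted p = 0.138), with CYP51A1 at an adjusted p of 0.0032 and SQLE at 0.0105. DHA + PRO against Ctrl called 8 with the block (0.732%), all but NSDHL, and DHA + PCA against Ctrl called 7 (0.706%), all but NSDHL and SC5D. Each enzyme was lower in 9 of 9 same-numbered pairs at 24 h, where a library with DHA was set against the one with the same second compound, or none, and no DHA. The share of all genes lower in every such pair was not computed.

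The mixtures were also set against the matching single compound. DHA + PRO against PRO called 4 enzymes lower (0.185% of all tested genes), FDFT1, CYP51A1, MSMO1 and HSD17B7. DHA + PCA against PCA called 5 (0.235%), FDFT1, LSS, CYP51A1, MSMO1 and DHCR7. LSS stood at -0.83 ± 0.18 in the latter (adjusted p = 0.0499, edgeR), at the edge of the threshold, and the count was 2, FDFT1 and DHCR7, when any 1 PCA library or DHA + PCA replicate 1 or 3 was left out. With the replicate block, DHA + PRO against PRO called 7 (0.614% of all tested genes), all but NSDHL and DHCR7, and DHA + PCA against PCA called 7 (0.496%), all but HSD17B7 and SC5D.

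PRO and PCA given alone moved none of the enzymes past the test at 24 h. With edgeR 0 of 9 were called for PRO against Ctrl (0% of all genes) and 0 of 9 for PCA against Ctrl (0%), with 0 at an unadjusted p under 0.05 in each and 0 by DESeq2. Log2 fold changes lay between -0.14 and 0.04 for PRO and between -0.12 and 0.15 for PCA. The 95% interval of FDFT1 was -0.23 to 0.11 for PRO and -0.12 to 0.22 for PCA, which leaves out a fall of the size seen with DHA, while that of LSS, -0.40 to 0.33 for PRO, was wider.

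DHA + PRO and DHA + PCA were set against DHA at 24 h to ask whether the second compound changed the level reached with DHA. Whether it changed the size of the DHA effect was not tested. The comparison with DHA called 0 of 9 enzymes in each case (0% of all genes in each), with 0 by DESeq2. An unadjusted p under 0.05 was reached by 1 enzyme in each, against 4.43% and 2.32% of all genes in either direction. That enzyme was MSMO1 in both, whose CPM were 316, 353 and 276 with DHA, 249, 277 and 272 with DHA + PRO, and 264, 290 and 265 with DHA + PCA. The log2 difference was -0.24 ± 0.09 for DHA + PRO (adjusted p = 0.999, 95% interval -0.44 to -0.05) and -0.21 ± 0.09 for DHA + PCA (adjusted p = 0.999, edgeR). FDFT1 differed by 0.00 ± 0.08 and -0.01 ± 0.08, with an interval of -0.17 to 0.17 for DHA + PRO.

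At 6 h the enzymes were already lower with DHA. All 9 had a negative pooled DHA effect, with a median log2 fold change of -0.44, and 5 were called lower, FDFT1, SQLE, CYP51A1, MSMO1 and HSD17B7, against 0.152% of the 11872 genes tested. With the replicate block all 9 were called lower (0.371%). Each was lower in 9 of 9 same-numbered pairs except DHCR7, which was lower in 8, with no share of all genes computed for the pairs. MSMO1 showed the largest fall, 42.7%, and DHCR7 the smallest, 17.8%.

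MSMO1 at 6 h had 249, 217 and 214 CPM in Ctrl, 243, 232 and 197 in PRO, and 269, 212 and 224 in PCA. It had 137, 127 and 123 CPM with DHA, 170, 109 and 126 with DHA + PRO, and 148, 117 and 120 with DHA + PCA. The libraries with and without DHA did not overlap, and the pooled effect was -0.80 ± 0.08 (adjusted p = 3.01e-05, edgeR). SQLE likewise did not overlap, with 232 to 301 CPM with DHA (median 264) and 357 to 407 without (median 378), a pooled effect of -0.52 ± 0.06 (adjusted p = 5.47e-05). Such separation of all 9 from all 9 libraries was found for these 2 enzymes at 6 h and for 0.11% of all tested genes.

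FDFT1 at 6 h ranged from 301 to 386 CPM with DHA and from 382 to 513 without, and overlapped narrowly, with a pooled effect of -0.36 ± 0.07 (adjusted p = 0.0266, edgeR). CYP51A1 ranged from 111 to 173 CPM with DHA and from 157 to 219 without (-0.47 ± 0.09, adjusted p = 0.0266). HSD17B7 ranged from 19.1 to 37.3 CPM with DHA and from 33.1 to 41.3 without (-0.56 ± 0.10, adjusted p = 0.024). Over all alternatives their log2 fold changes stayed between -0.394 and -0.326 for FDFT1, -0.543 and -0.428 for CYP51A1, and -0.648 and -0.506 for HSD17B7. All 3 calls were lost, which left SQLE and MSMO1, without Ctrl replicate 1, DHA replicate 3, PRO replicate 1, PCA replicate 1, DHA + PRO replicate 2 or 3, or DHA + PCA replicate 2 or 3 (adjusted p up to 0.101). The count was 3 without Ctrl replicate 3, DHA replicate 2 or PRO replicate 3. SQLE and MSMO1 were called whichever library was left out. LSS, NSDHL, SC5D and DHCR7 did not pass the test at 6 h without the block, with pooled effects of -0.44 ± 0.12, -0.29 ± 0.07, -0.35 ± 0.10 and -0.28 ± 0.09 and adjusted p between 0.23 and 0.672 (edgeR). With the block their adjusted p were 0.00552, 0.0211, 0.00267 and 0.0269.

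**Figure D3:**
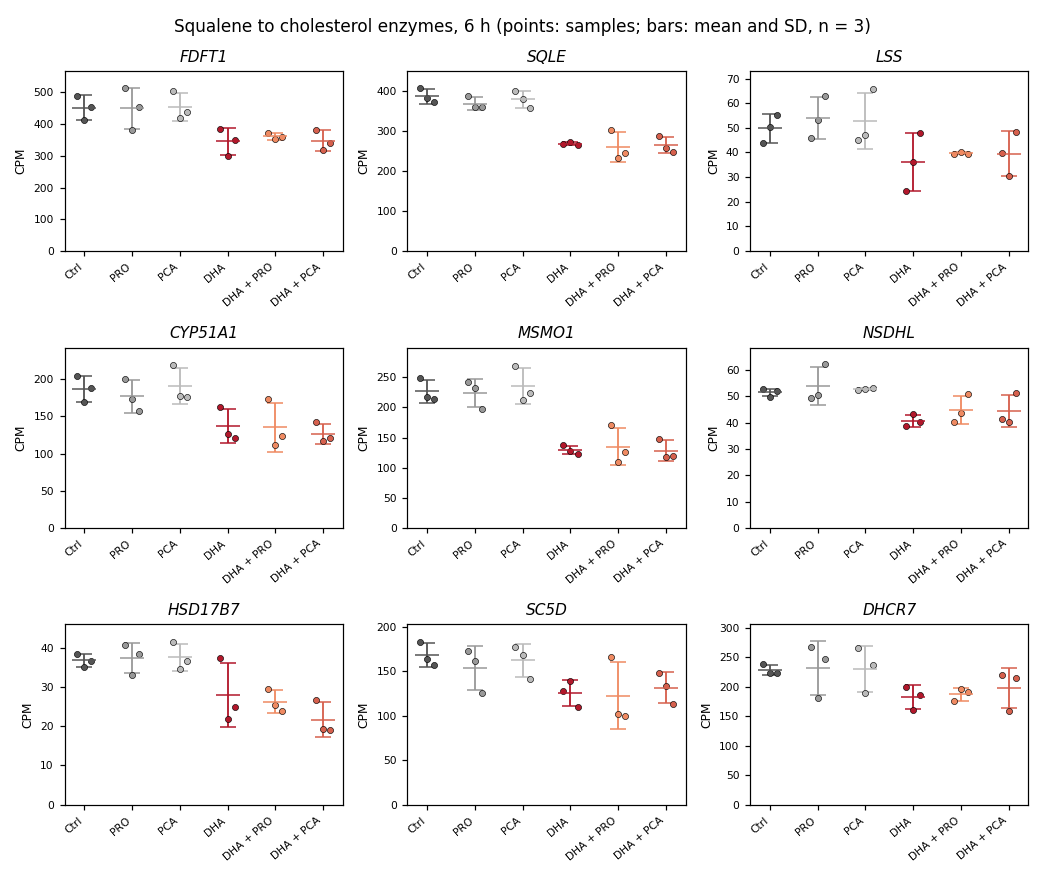
CPM of each enzyme (y axis, from 0) in the 6 groups at 6 h, with points for samples and bars for the mean and SD (n = 3). MSMO1 and SQLE separate the libraries with DHA from those without, and the other 7 enzymes overlap.

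With 3 libraries a group at 6 h, edgeR called 0 of 9 enzymes when the Ctrl libraries were set against those given DHA, and 0 of 9 with either mixture, each against 0.0168% of all genes called lower. An unadjusted p under 0.05 was reached by 9, 6 and 5 enzymes (DHA, DHA + PRO and DHA + PCA), against 2.84%, 2.22% and 3.15% of all genes in either direction. DESeq2 called SQLE and MSMO1 in each of the 3, and no share of all genes was computed for DESeq2. With the replicate block edgeR called SQLE, CYP51A1 and MSMO1 in all 3 comparisons with Ctrl, FDFT1 also for DHA and for DHA + PCA, and HSD17B7 also for DHA + PCA, which gave 4 (0.101% of all genes), 3 (0.0758%) and 5 enzymes (0.0842%). Without DHA + PRO replicate 1 the DHA + PRO count was 2 against Ctrl and 2 against PRO, and without DHA + PCA replicate 1 the DHA + PCA count against Ctrl was 1. DHA + PRO against PRO at 6 h called 0 of 9 (0.00842% of all genes), with 7 at an unadjusted p under 0.05 (1.47% of all genes in either direction) and 2 by DESeq2. DHA + PCA against PCA called MSMO1 alone (0.0253%), at -0.87 ± 0.14 (adjusted p = 0.0307, edgeR), a call lost without PCA replicate 1 or 3 or DHA + PCA replicate 2 or 3. The block gave 2 enzymes against PRO, SQLE and MSMO1 (0.0758%), and 5 against PCA, FDFT1, SQLE, CYP51A1, MSMO1 and HSD17B7 (0.101%). PRO and PCA alone against Ctrl at 6 h called 0 of 9 in each (0% of all genes), with 0 at an unadjusted p under 0.05 and 0 by DESeq2. Their log2 fold changes lay between -0.13 and 0.11 for PRO and between -0.05 and 0.08 for PCA. DHA + PRO and DHA + PCA against DHA at 6 h likewise called 0 of 9 (0% of all genes), with 0 at an unadjusted p under 0.05 and 0 by DESeq2, and the largest difference was that of HSD17B7 with PCA, -0.37 ± 0.18 (adjusted p = 1, edgeR).

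**Figure D4:**
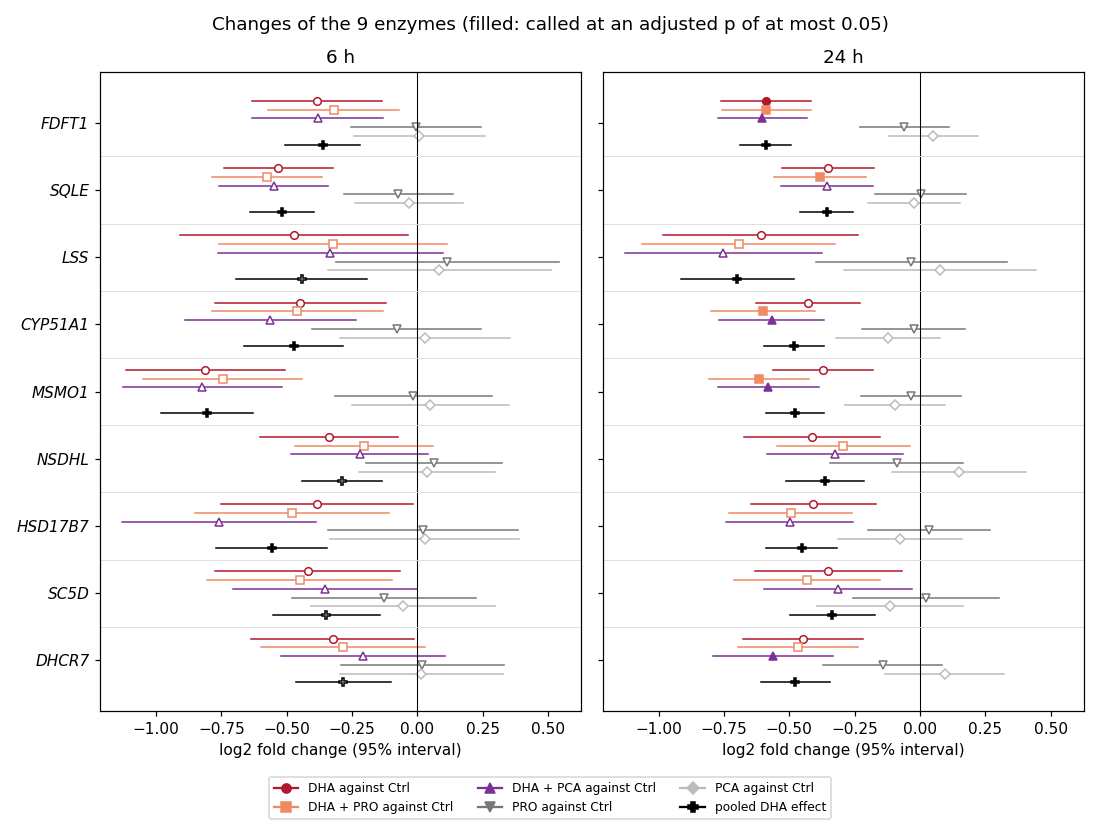
Log2 fold change (x axis) with its 95% interval for each enzyme at 6 h and 24 h, by comparison (colours and symbols), where filled symbols passed the test. The point estimates of the DHA comparisons lie left of 0 for all 9 enzymes, while those of PRO and PCA alone lie around 0.

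The library numbers in the sample titles fall into a lower and a higher run, termed here the earlier and the later series. No label names a series. At 24 h the later series was replicate 3 of every group, so the split there was also a split by replicate number. The pooled DHA difference was taken within each series as a difference of mean log2 CPM. All 9 enzymes were lower with DHA in both series at both times. At 24 h the differences ran from -0.72 to -0.31 in the earlier libraries (6 against 6) and from -0.64 to -0.34 in the later ones (3 against 3). At 6 h they ran from -0.77 to -0.27 (5 against 6) and from -0.82 to -0.26 (4 against 3).

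The change of the pooled DHA effect from 6 h to 24 h was tested in a single fit of the 36 libraries. It called 0 of 9 enzymes (edgeR, 0% of 12046 genes called lower), with 3 at an unadjusted p under 0.05 (3.05% of all genes in either direction) and 0 by DESeq2. The 3 were FDFT1, whose effect was larger at 24 h by -0.24 ± 0.08 on the log2 scale, and SQLE and MSMO1, whose effects were smaller at 24 h by 0.15 ± 0.07 and 0.32 ± 0.10, all with an adjusted p of 1. With the replicate block 2 of these were called, FDFT1 (adjusted p = 0.0245) and MSMO1 (adjusted p = 0.0233), against 0.166% of all genes in either direction. Without the block the interval for MSMO1 was 0.11 to 0.52, and that for CYP51A1, at -0.02 ± 0.11, was -0.24 to 0.20.

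Without DHA, the enzymes were higher after 24 h than after 6 h of incubation in serum-free medium. All 9 were called higher in Ctrl, PRO and PCA together (9 against 9 libraries), against 24.3% of the genes tested, so a rise was common in the table. The log2 rise was largest for DHCR7, 1.30 ± 0.08 (adjusted p = 3.03e-15), LSS, 1.15 ± 0.12 (adjusted p = 9.71e-10), and FDFT1, 1.07 ± 0.06 (adjusted p = 3.44e-16, edgeR). It was smallest for CYP51A1, 0.39 ± 0.08, SC5D, 0.43 ± 0.09, and SQLE, 0.43 ± 0.05. DHA against Ctrl at 24 h was thus a difference at a raised level. With all libraries scaled together, all DHA libraries at 24 h lay above all Ctrl libraries at 6 h for FDFT1, LSS, MSMO1, NSDHL and DHCR7, with DHCR7 at 417 and 226 CPM on average. For CYP51A1 (184 and 186 CPM), SQLE (397 and 383 CPM), SC5D and HSD17B7 these libraries overlapped. The share of all genes with DHA libraries at 24 h above Ctrl libraries at 6 h was not computed.

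**Figure D5:**
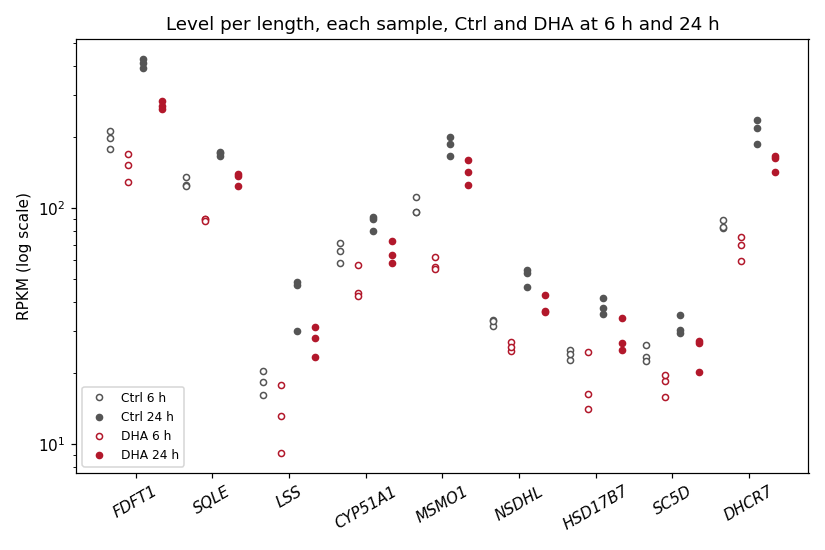
RPKM of each enzyme in every Ctrl (grey) and DHA (red) sample at 6 h (open) and 24 h (filled), on a log axis, with all 36 libraries scaled together. FDFT1 is the most abundant enzyme at 24 h, and the 24 h Ctrl samples lie above the 6 h Ctrl samples in each gene.

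The 9 enzymes varied together across the samples, though not every pair did so closely. With each gene's log2 CPM centred within its time, the correlation of an enzyme with the mean of the other 8 over the 36 samples ran from r = 0.661 for NSDHL and 0.685 for SC5D to 0.916 for FDFT1 and 0.92 for SQLE. Between single enzymes r ran from 0.22 for NSDHL and SC5D, and 0.348 for LSS and SC5D, to 0.964 for SQLE and MSMO1. These points share libraries, scaling and treatment groups, so r is given as a description. The centring kept the difference made by DHA, and its part in r was not tested. Among 11935 other genes the 10 most like the mean of the enzymes were HMGCS1 (r = 0.922), TMEM97 (0.919), ACLY (0.904), IDI1 (0.897), LPIN1 (0.896), SCD (0.893), ACSL3 (0.885), STARD4 (0.864), ACSS2 (0.848) and ELOVL6 (0.845).

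The steps before and around the branch gave mixed counts. Of 4 other sterol proteins after squalene, 3 were lower at 24 h in the pooled DHA effect: C14orf1, a scaffold of the demethylation enzymes, at -0.43 ± 0.05 (adjusted p = 2.53e-05), TM7SF2, a sterol reductase, at -0.38 ± 0.07 (adjusted p = 0.00264), and EBP, the sterol isomerase, at -0.30 ± 0.05 (adjusted p = 0.00197, edgeR). LBR, a nuclear membrane protein with reductase activity, stood at -0.02 ± 0.08 (adjusted p = 0.958). At 6 h edgeR and DESeq2 called 0 of these 4, and 0 had an unadjusted p under 0.05.

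Of 8 enzymes from acetyl-CoA to farnesyl diphosphate, 6 were lower at 24 h and 4 at 6 h. HMGCS1, which makes the precursor of mevalonate, was at -0.72 ± 0.07 at 24 h (adjusted p = 3.22e-07) and -0.81 ± 0.06 at 6 h (adjusted p = 6.18e-08, edgeR). MVD, IDI1 and MVK were also lower at both times, at -0.66 ± 0.09, -0.50 ± 0.07 and -0.35 ± 0.07 at 24 h and at -0.49 ± 0.09, -0.61 ± 0.08 and -0.57 ± 0.11 at 6 h. Both the MVK and the MVD call at 6 h were lost without Ctrl replicate 1 or 2, DHA replicate 3, PRO replicate 1 or 3, PCA replicate 1 or 3, or DHA + PCA replicate 1 or 2, MVK also without DHA replicate 1, and MVD also without DHA replicate 2, DHA + PRO replicate 2 or DHA + PCA replicate 3. FDPS, which makes the substrate of FDFT1, and ACAT2 were the other 2 at 24 h, at -0.49 ± 0.05 (adjusted p = 4.1e-07) and -0.41 ± 0.05 (adjusted p = 2.72e-05), and their 6 h values were -0.17 ± 0.07 and -0.18 ± 0.08 (adjusted p = 1 for each, edgeR). With the replicate block ACAT2 was called at 6 h too (adjusted p = 0.0439). The change between the times did not pass the test for either (adjusted p = 0.507 for FDPS), but with the block that of FDPS did (adjusted p = 0.00769). PMVK and IDI2 stood at -0.02 ± 0.11 and 0.21 ± 0.20 at 24 h.

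Of 8 genes of SREBP control and of SQLE turnover, 7 were tested and INSIG1 fell under the filter on low counts. INSIG1 was listed at 0 in every library of 10 of the 12 groups, and whether the counting lost it was not tested, so nothing is read from it. SREBF1, which encodes a SREBP factor, was lower at 24 h, -0.68 ± 0.09 (adjusted p = 7.15e-05), and at 6 h, -0.63 ± 0.08 (adjusted p = 0.000183, edgeR). SREBF2, which encodes the factor best known for sterol genes, was lower at 24 h, -0.23 ± 0.06 (adjusted p = 0.0478), a call kept, among the fits that left out 1 library, only without Ctrl replicate 1, DHA replicate 3, PRO replicate 1 or DHA + PCA replicate 1, and stood at -0.15 ± 0.07 at 6 h (adjusted p = 1). The log2 change of SREBF2 was smaller than that of any of the 9 enzymes at 24 h. SCAP, INSIG2, MBTPS1, MBTPS2 and MARCH6, the ligase that marks SQLE for breakdown, did not pass the test at either time, with MARCH6 at 0.003 ± 0.06 at 24 h.

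Among 5 electron donors of the sterol enzymes, CYB5B, a cytochrome b5, was lower at 24 h, -0.23 ± 0.05 (adjusted p = 0.00954, edgeR). POR, the reductase that feeds SQLE and CYP51A1, stood at 0.007 ± 0.07 (adjusted p = 0.985), and CYB5A, CYB5R3 and PGRMC1 did not pass the test either. At 6 h edgeR without the block and DESeq2 called 0 of the 5, with 1 at an unadjusted p under 0.05, CYB5B at -0.19 ± 0.07, which was called with the block (adjusted p = 0.0292). Of 6 other enzymes that use farnesyl diphosphate, edgeR without the block and DESeq2 called 0 at either time, with 1 at an unadjusted p under 0.05 at each. These were PDSS1 at 24 h, 0.28 ± 0.10 (adjusted p = 0.225), and GGPS1, which makes geranylgeranyl diphosphate, at 6 h, -0.35 ± 0.12 (adjusted p = 1, edgeR), which was called lower with the block (adjusted p = 0.00854).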

How the data were processed

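RNA from HepG2 cells was sequenced by the study from 36 libraries (12 groups of 3). Per the study's methods and the submitters' processing notes, the authors aligned reads to hg19 (GRCh37) with STAR and counted them with the iRNA-seq pipeline, whose versions are not given in the sources used here. The deposited table holds raw read counts per RefSeq gene, with no normalization, and the deposited counted length per gene (another unit, in bases), which was used for RPKM only. The kit named does not mark strand.

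Samples were grouped by the labels. Counts were scaled by TMM and fitted with edgeR 4.0.16 (R 4.3.3) by quasi-likelihood, the 18 libraries of each time together and all 36 for comparisons between times, after filterByExpr on low counts (11893, 11872 and 12046 genes, each with all 9 enzymes). Two-sided p-values were corrected by the Benjamini-Hochberg method across every gene of a fit. Calls needed a corrected value no higher than 0.05, with mean log2 CPM over 0. SE is the log2 fold change divided by the root of F. The deposited names are those of RefSeq, and promoters came from RefSeq (GRCh38.p14) and were placed on GRCh37 by exact match. CPM and RPKM use TMM library sizes within each time unless stated. Replicates of a group were separate cultures, with wells pooled. The p-values of the fit without the block measure the spread between libraries within groups. They treat all libraries of a fit as independent, although same-numbered libraries of different groups appear to share a culture. The libraries on each side of a pooled comparison would then come from 3 cultures. Replicate numbers pair the samples: the deposited column headings give the same 3 sets of wells in every group, and the protocol states 3 cultures with wells pooled, though not in words that a culture spans all groups. Residuals of same-numbered samples correlated at 0.273 on average at 6 h (38 of 45 pairs over 0.1) and 0.159 at 24 h (34 of 45), and 16 and 17 of 18 samples correlated best with their own number. The fit without the block was kept as the main one, and blocked values are given where they change a call.

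The enzymes, the gene lists and the rules were chosen with earlier results of these data known. All 9 enzymes are named in every comparison. Of the other lists, genes called in the pooled DHA effect and the other sterol proteins are named, and the further ones named with values, which include GGPS1, PDSS1 and POR, were chosen after their values were seen. The 10 genes most like the enzymes were ranked by Pearson's r on log2(CPM + 0.5). Some genes, a member of one list among them, are not reported here. The 24 h fit was tested on counts simulated for the 24 h libraries, with the same set spread for all genes and no culture effect. The 6 h fit and the fit of all 36 libraries were not simulated. Alternatives were DESeq2 1.42.0 size factors, its Wald test, no filter on low counts, a replicate block, a term for library series, thinning of the deep library and leaving out each library. The counts for the other lists under these alternatives were added after seeing the data. Figures were drawn with matplotlib 3.10.9.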

Additional observations from a re-analysis of the deposited data

How the results depend on the processing

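No log2 fold change of an enzyme in the pooled DHA effect changed direction under any alternative. Over all values and alternatives 671 were rated the same. For a single enzyme this meant the same direction and side of the threshold. For a count of calls it meant a value within 1.5 times of the main one, whichever genes were called. A further 69 counts moved by over 1.5 times, or from or to 0, 39 single enzyme calls were lost and 9 were gained. The 9 enzymes were lower in the pooled DHA effect at both times in every alternative run, and the 24 h count was 8 or 9 in all of them. DESeq2 size factors and, at 24 h, thinning of the deep library moved no count of enzymes by over 1.5 times.

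In the order DHA, DHA + PRO and DHA + PCA against Ctrl, the DESeq2 Wald test called 5, 7 and 7 enzymes at 24 h and 2, 2 and 2 at 6 h, with 2 for DHA + PRO against PRO and 3 for DHA + PCA against PCA at 6 h. With no filter on low counts, DHA and DHA + PRO against Ctrl gave 4 and 7 at 24 h, DHA + PRO against PRO gave 7, and at 6 h the values were 1, 2 and 1 against Ctrl and 1 for DHA + PRO against PRO. A term for library series gave 4, 7 and 7 at 24 h, and at 6 h 2, 2 and 2 against Ctrl, 2 and 2 against PRO and PCA, and 8 in the pooled DHA effect. The shares of all genes called under these settings, or with a library left out, were not computed. Whether the higher counts reflect the enzymes or a more liberal test cannot be told from them. The cause of these moves was not tested.

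With the replicate number as a block, the counts were 7, 8 and 7 against Ctrl and 7 for DHA + PRO against PRO at 24 h. At 6 h the block gave 4, 3 and 5 against Ctrl, 2 and 5 against PRO and PCA, 9 in the pooled DHA effect and 8 genes of the other lists, and 2 enzymes, FDFT1 and MSMO1, in the change between times. The block ended no call of an enzyme, and it changed no call of the pooled effects or of the change between times other than those given above.

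Leaving out 1 library at a time gave at 24 h 1 call for DHA, 3 to 5 for DHA + PRO and 2 to 5 for DHA + PCA against Ctrl, 3 to 5 for DHA + PRO against PRO and 2 to 4 for DHA + PCA against PCA. At 6 h it gave 0 for DHA, 0 to 2 for DHA + PRO and 0 to 1 for DHA + PCA against Ctrl, 0 to 2 against PRO, 0 to 1 against PCA and 2 to 6 in the pooled DHA effect. The other lists gave 11 to 12 called genes at 24 h and 3 to 5 at 6 h. With 3 libraries a group and a median of 7034006.5 counts, the single comparisons at 6 h could miss changes that the pooled ones called.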

Other observations

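The mean deviation of the 9 enzymes from their group mean followed the replicate number. At 6 h replicate 1 lay above its group mean in 6 of 6 groups (0.063 to 0.154 on the log2 scale) and replicate 2 below it in 6 of 6 (-0.143 to -0.055). At 24 h replicate 1 lay below in 6 of 6 groups (-0.111 to -0.019) and replicate 2 above in 6 of 6 (0.013 to 0.09).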
